A study of Mus musculus with 9 samples.

Results

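The enzymes described here make NADPH or run the pentose phosphate pathway: glucose-6-phosphate dehydrogenase (G6pdx), 6-phosphogluconolactonase (Pgls), phosphogluconate dehydrogenase (Pgd), ribose-5-phosphate isomerase (Rpia), ribulose-phosphate epimerase (Rpe), transketolase (Tkt), transaldolase (Taldo1), cytosolic malic enzyme (Me1) and the NADP-dependent isocitrate dehydrogenases Idh1 and Idh2. The 10 genes were taken as a list of names, by function, with earlier results of these data known. Of them, 7 had a named probe, 10 probes in all, and those 7 were tested among 7354 genes. G6pdx, Pgd and Rpe were not analysed here. All 7 genes were detected on all 9 arrays, so none of them owed its place in the test to 1 group.

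Expression was measured on Illumina bead arrays in total RNA of mouse salivary gland cancer stem cells of strain C57BL/6, which had been isolated from primary material and grown in DMEM/F12 with serum replacement. All cells received DMSO, LF3 or ICG-001 for 24 h, with 3 arrays per group. DMSO is the solvent control. The title of the series calls the other agents Wnt inhibitors: background knowledge places the action of LF3 at the contact between β-catenin and TCF4, and that of ICG-001 at the contact between β-catenin and its coactivator CBP. The labels state no doses, so differences between LF3 and ICG-001 are differences between these treatments as given and not at matched doses. Nothing in the labels says that the 3 arrays of a group came from separate cultures. The p-values therefore rest on the spread among these arrays alone, and that spread may be technical.

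The pentose phosphate pathway branches from glycolysis at glucose 6-phosphate. Its oxidative branch reduces NADP to NADPH and releases a pentose, and its reversible non-oxidative branch links pentoses to glycolytic sugars and supplies ribose for nucleotides. Malic enzyme and the NADP-dependent isocitrate dehydrogenases are further sources of NADPH, which cells spend on lipid synthesis and on the reduction of glutathione and thioredoxin. In human lung cancer cells, the transcription factor NRF2 is known to raise several of these genes.

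Tkt and Idh1 had the lowest adjusted p of the 7 genes in limma's F test among the 3 groups, and for that reason their promoter sequences are shown. Each is the 250 bases before the annotated start of promoter 1, on the gene's own strand, from RefSeq for build GRCm38.p6. The Tkt sequence lies at chr14:30548881-30549130 on the plus strand and the Idh1 sequence at chr1:65186480-65186729 on the minus strand. No letters are in capitals because none of the motifs searched was found in them.
Tkt promoter 1: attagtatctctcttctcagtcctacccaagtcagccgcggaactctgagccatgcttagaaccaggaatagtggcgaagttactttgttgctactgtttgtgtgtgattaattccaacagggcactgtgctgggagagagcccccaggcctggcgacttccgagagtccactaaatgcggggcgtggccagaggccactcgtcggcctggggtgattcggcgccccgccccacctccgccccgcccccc
Idh1 promoter 1: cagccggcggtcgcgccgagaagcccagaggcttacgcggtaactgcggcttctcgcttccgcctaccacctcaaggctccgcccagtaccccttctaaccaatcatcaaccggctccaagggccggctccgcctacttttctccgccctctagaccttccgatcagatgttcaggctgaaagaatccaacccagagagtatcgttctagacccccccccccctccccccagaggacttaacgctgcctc

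Both stretches are rich in G and C, with a GC content of 59.6% for Tkt and 61.6% for Idh1, against a median of 52.4% over the 32851 promoters in the RefSeq table. All 10 genes matched the table, with 13 promoters. In windows from 250 bases before to 50 bases after the start, 4 motifs were searched on both strands. The antioxidant response element core TGACNNNGC, which NRF2 is known to bind, was in the windows of G6pdx, Pgd promoter 2 and Me1 promoter 1, and 12.39% of all promoters held it. In Me1 the match TGACTCAGC began 6 bases before the start. The sterol regulatory element TCACNCCAC (1.242% of all promoters), the ATF4 and CEBP composite core TGATGNAA (3.969%) and the E-box CACGTG (7.15%) were in none of the 13 windows. A match is a description of the letters, and an absent match says nothing about a factor's binding.

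Under ICG-001, 5 of the 7 genes fell against DMSO, and 1 rose. Idh1 fell 3.31-fold and Tkt 2.36-fold, Rpia, Me1 and Idh2 fell between 1.35-fold and 1.53-fold, and Pgls was 1.31-fold higher. Under LF3, Idh1 alone of the 7 passed the test, 1.55-fold lower than in DMSO. A gene was called at a limma adjusted p under 0.05, over all probes kept. Of all genes tested, 18.9% were called lower and 18.7% higher in ICG-001 than in DMSO (37.6% in all). In LF3 minus DMSO, 11.3% of all genes were called lower and 10.9% higher (22.2% in all).

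The median log2 difference of the 7 genes was -0.45 for ICG-001 minus DMSO, beside -0.01 over all genes. For LF3 minus DMSO it was 0.14, beside 0.01 over all genes. Both comparisons use the same 3 DMSO arrays, so their values are given side by side and not as separate evidence. Between the inhibitors, 5 of the 7 genes were higher in LF3 than in ICG-001 and 0 were lower, while 20.2% of all genes were called higher and 19.5% lower (39.7% in all). The median of that difference was 0.58, beside 0.00 over all genes. The F test among the 3 groups called 5 of the 7 genes, as it did 52.2% of all genes.

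**Figure D1:**
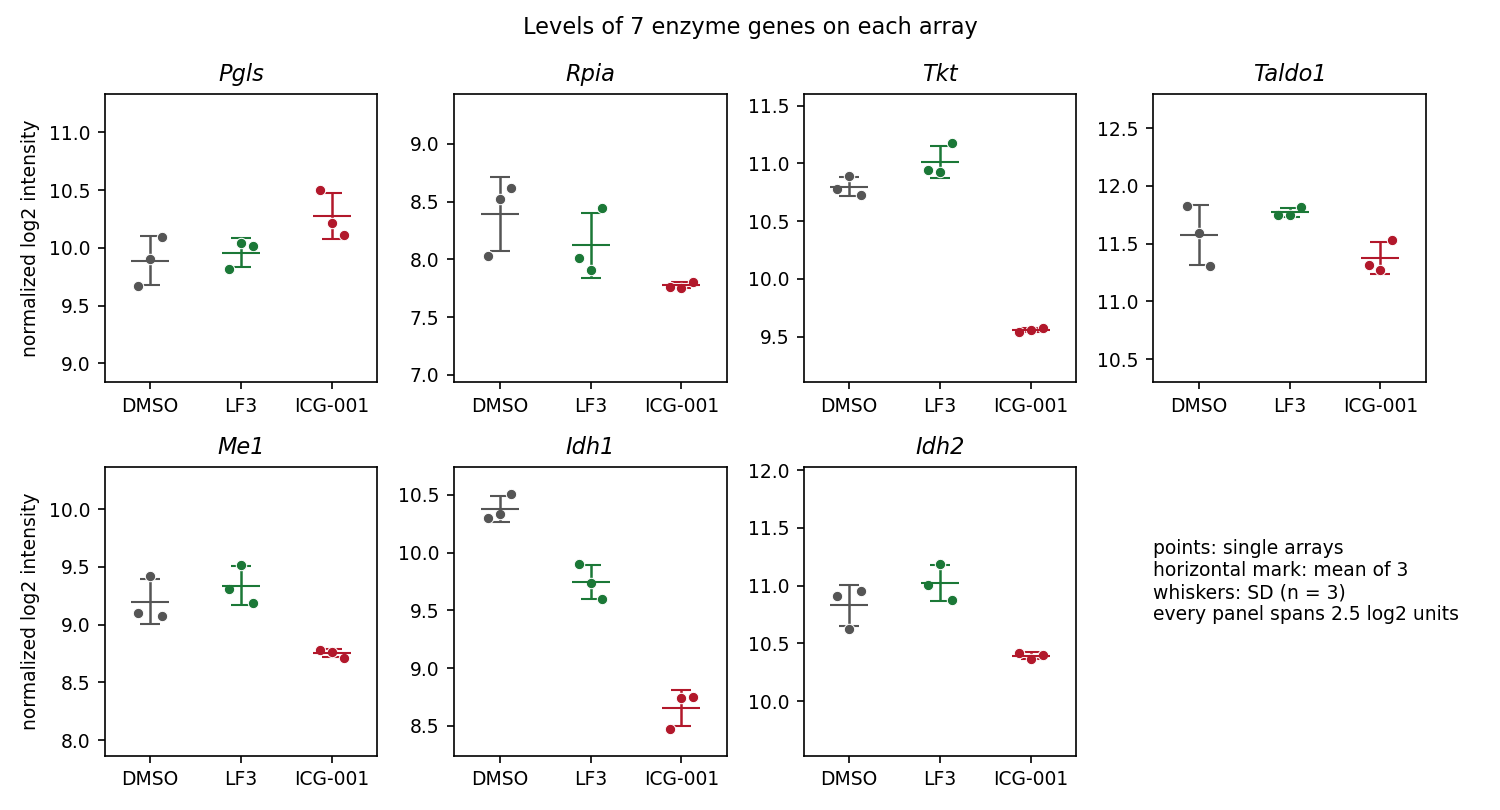
Normalized log2 intensity of the 7 genes on each array (y axis, every panel spanning the same range) for DMSO, LF3 and ICG-001 (x axis), with the mean of 3 arrays as a horizontal mark and the SD as whiskers. Tkt and Idh1 on the ICG-001 arrays lie far below their DMSO values, and Idh1 on the LF3 arrays lies between the other groups.

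**Figure D2:**
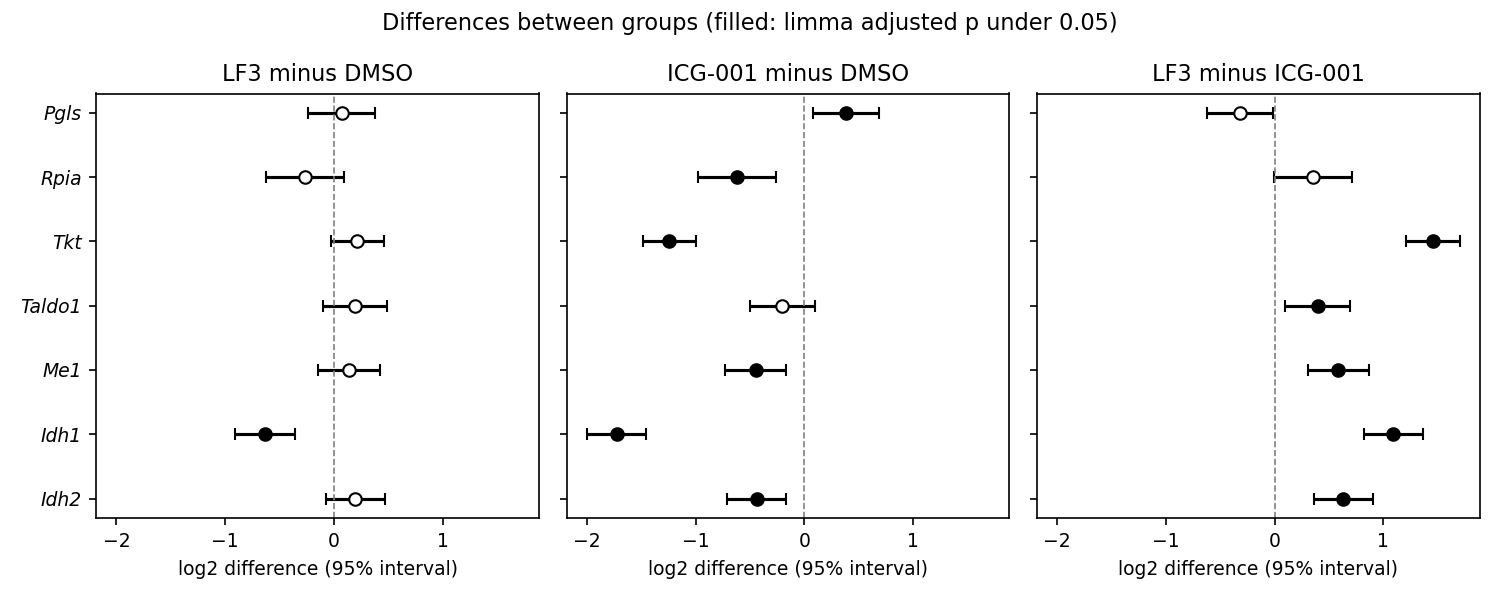
Log2 difference (x axis) of each of the 7 genes (y axis) in the 3 comparisons, with its 95% interval from limma; filled points had an adjusted p under 0.05. Idh1 is the filled point in LF3 minus DMSO, and 6 points are filled in ICG-001 minus DMSO.

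Pgls hydrolyses the lactone formed by glucose-6-phosphate dehydrogenase and was the measured gene of the oxidative branch. Its normalized log2 intensity was 9.67, 9.90 and 10.09 on the DMSO arrays, 9.81, 10.05 and 10.02 on the LF3 arrays and 10.50, 10.21 and 10.11 on the ICG-001 arrays. All ICG-001 values lay above all DMSO values, but by 0.02 only, and the LF3 values lay within the DMSO range. The log2 difference was 0.39 (SE 0.14, limma adjusted p = 0.0464) for ICG-001 and 0.07 (SE 0.14, adjusted p = 0.765) for LF3. The ICG-001 call ended without DMSO array 1 or 2, ICG-001 array 1 or 2 or LF3 array 2, with log2 differences of 0.27 to 0.42 and adjusted p from 0.0542 to 0.192. It also ended with arrays scaled to a common median (adjusted p = 0.165), without the filter on dim probes (0.096) and with only the 2 groups in the fit (0.0529).

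Transketolase moves 2-carbon units between sugars in the non-oxidative branch. Tkt stood at 10.78, 10.89 and 10.73 on the DMSO arrays and at 9.54, 9.56 and 9.58 on the ICG-001 arrays. On the LF3 arrays it was 10.94, 10.93 and 11.17. The ICG-001 arrays were the lowest, 1.15 below the nearest DMSO array, and the LF3 arrays lay just above the DMSO arrays, by 0.04. Tkt fell by 1.24 on the log2 scale under ICG-001 (SE 0.11, limma adjusted p = 2.91e-06), and 1.4% of all genes had a lower difference. Under LF3 the difference was 0.21 (interval -0.03 to 0.46, adjusted p = 0.198). LF3 exceeded ICG-001 by 1.46 on the log2 scale, which is 2.74-fold (adjusted p = 1.17e-06).

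The Tkt values come from probe ILMN_2607880. The other 2 Tkt probes, ILMN_2780322 and ILMN_2780323, were not detected on any array, with deposited signals of 47.0 to 73.2 and 49.3 to 66.4. They give no second reading of the change, and where the 3 probes lie in the transcript was not examined.

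**Figure D3:**
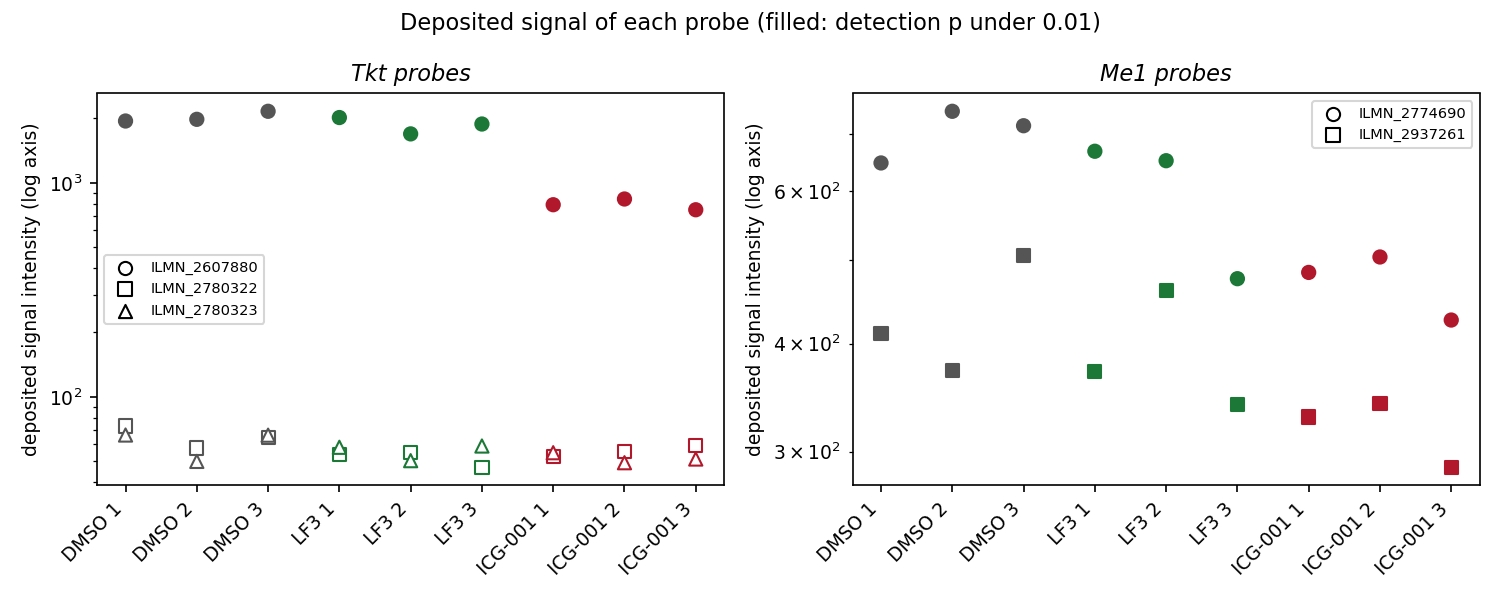
Deposited signal intensity, before normalization (y axis, log scale), of the 3 Tkt probes and the 2 Me1 probes on each of the 9 arrays (x axis); filled symbols were detected at p under 0.01. ILMN_2607880 of Tkt lies between 748 and 840 on the ICG-001 arrays and between 1691 and 2156 on the others, and the open symbols of the other Tkt probes stay at the background.

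Transaldolase works beside transketolase in the same branch. Taldo1 values were 11.83, 11.60 and 11.31 on the DMSO arrays, 11.75, 11.75 and 11.81 on the LF3 arrays and 11.31, 11.28 and 11.54 on the ICG-001 arrays. The DMSO arrays spanned the values of both other groups except the lowest ICG-001 array, and LF3 lay above ICG-001 on every array. Against DMSO the log2 difference was 0.19 for LF3 (adjusted p = 0.34) and -0.20 for ICG-001 (adjusted p = 0.276) in limma. LF3 exceeded ICG-001 by 0.40 (SE 0.14, adjusted p = 0.0354). That call ended without ICG-001 array 1 or 2 or any 1 of the 3 LF3 arrays, with differences of 0.35 to 0.41 and adjusted p from 0.068 to 0.121. It also ended with median scaling (adjusted p = 0.168) and without the filter on dim probes (0.0689).

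Rpia interconverts ribulose 5-phosphate and ribose 5-phosphate, the precursor of nucleotides. It was 8.03, 8.53 and 8.62 on the DMSO arrays, 8.02, 7.91 and 8.44 on the LF3 arrays and 7.76, 7.75 and 7.80 on the ICG-001 arrays. The ICG-001 arrays were the lowest and close together, DMSO array 1 stood well below the other DMSO arrays, and LF3 and DMSO overlapped. Rpia fell by 0.62 on the log2 scale under ICG-001 (SE 0.17, limma adjusted p = 0.0105). Leaving out DMSO array 3 ended that call (-0.50, adjusted p = 0.0507). Under LF3 the difference was -0.27 (adjusted p = 0.274), and without DMSO array 1 it was -0.45 and passed (adjusted p = 0.0473).

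The pair of non-oxidative enzymes Tkt and Taldo1 was compared after their values were seen. Within each array, and relative to the DMSO arrays, Tkt less Taldo1 on the log2 scale changed by -1.04 under ICG-001 (SD 0.12 over the 3 ICG-001 arrays and 0.24 over the 3 DMSO arrays). Under LF3 it changed by 0.02 (SD 0.10). The groups did not overlap for ICG-001, with an exact two-sided permutation p of 0.1, the smallest that 3 arrays against 3 allow. For LF3 the exact p was 1. The pair was picked from these same values, so these p-values lend no support. Tkt less Rpia, taken in the same way, changed by -0.62 under ICG-001 and by 0.48 under LF3.

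Idh1 makes NADPH in the cytosol and peroxisomes as it turns isocitrate into 2-oxoglutarate. Its log2 intensity was 10.30, 10.33 and 10.51 on the DMSO arrays and 9.90, 9.74 and 9.60 on the LF3 arrays. On the ICG-001 arrays it was 8.47, 8.74 and 8.75. The 3 groups were fully separate, with DMSO highest, LF3 0.40 below the nearest DMSO array and ICG-001 0.85 below the nearest LF3 array. Under LF3, Idh1 fell by 0.63 (95% interval -0.91 to -0.36, limma adjusted p = 0.00375), and 3.85% of all genes had a lower difference. Under ICG-001 it fell by 1.73 (interval -2.00 to -1.45, adjusted p = 4.79e-07), and 0.354% of all genes had a lower difference. Idh1 was 2.13-fold higher in LF3 than in ICG-001 (log2 difference 1.09, adjusted p = 2.82e-05).

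Idh2 carries out the same reaction in mitochondria. Its values were 10.91, 10.63 and 10.96 on the DMSO arrays, 11.01, 11.19 and 10.88 on the LF3 arrays and 10.42, 10.36 and 10.40 on the ICG-001 arrays. ICG-001 was lowest on every array, and LF3 and DMSO overlapped. Idh2 fell by 0.44 under ICG-001 (SE 0.13, limma adjusted p = 0.0152). The call ended without DMSO array 3 (-0.37, adjusted p = 0.063) and without ICG-001 array 2 (-0.42, adjusted p = 0.05). Under LF3 the difference was 0.20 (interval -0.08 to 0.47, adjusted p = 0.29), and LF3 exceeded ICG-001 by 0.63 (adjusted p = 0.00153).

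Idh1 and Idh2 were also compared with each other, after their values were seen. Idh1 less Idh2 within each array, relative to DMSO, changed by -0.83 under LF3 (SD 0.17 over 3 LF3 arrays) and by -1.29 under ICG-001 (SD 0.18 over 3 ICG-001 arrays), with an SD of 0.16 over the 3 DMSO arrays. Neither inhibitor group overlapped the DMSO group, and the exact two-sided permutation p was 0.1 for each, the smallest that 3 against 3 allow. As the pair was picked from these same values, that p lends no support. This ratio within an array does not say whether Idh2 itself changed.

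Me1 makes NADPH in the cytosol as it turns malate into pyruvate, and 2 of its probes were detected on every array. The brighter probe, ILMN_2774690, gave 9.10, 9.42 and 9.07 on the DMSO arrays, 9.31, 9.52 and 9.18 on the LF3 arrays and 8.78, 8.76 and 8.71 on the ICG-001 arrays. The ICG-001 arrays were lowest, and LF3 and DMSO overlapped. Me1 fell by 0.45 on the log2 scale under ICG-001 (SE 0.13, limma adjusted p = 0.0161). That call ended without DMSO array 2 (-0.33, adjusted p = 0.0887) and without ICG-001 array 3 (-0.43, adjusted p = 0.0526). LF3 minus DMSO was 0.14 (adjusted p = 0.484), and LF3 exceeded ICG-001 by 0.58 (adjusted p = 0.00317, and 0.0524 with median scaling).

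The second Me1 probe, ILMN_2937261, read 8.36, 8.35 and 8.52 on the DMSO arrays, 8.42, 9.00 and 8.65 on the LF3 arrays and 8.16, 8.15 and 8.09 on the ICG-001 arrays. Its ICG-001 arrays were again the lowest. The difference from DMSO was -0.28 and did not pass (limma adjusted p = 0.138), so the 2 probes disagreed on the call for ICG-001 minus DMSO. Both passed in LF3 minus ICG-001, where the second probe gave 0.56 (adjusted p = 0.00673).

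The 7 patterns were close in some pairs of genes and far apart in others. As a measure of likeness, each gene was centred on its DMSO mean and the root mean square difference over the 9 arrays was taken. Me1 and Idh2 were the closest pair, at 0.18, and Pgls and Idh1 the farthest apart, at 1.30. The SD over the 3 DMSO arrays was 0.20 for Me1 and 0.18 for Idh2. Among 7347 other genes, those nearest to Idh1 were Cd248 (0.184), Map2k6, Klhl30, Fbp2 and Bnip3l (0.21), and those nearest to Tkt were Cdc25c (0.132), Lcmt1, Erdr1, Tk1 and Cbr2 (0.149). Tkt and Idh1 were chosen for this after their values were seen, and the distances rest on the same 9 arrays as the comparisons.

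Other genes of the pathway were counted from lists chosen by function, also with earlier results of these data known. Of 13 other NADPH sources and NAD kinases, 12 had a named probe and 7 were tested. Against DMSO, 2 were higher and 1 lower under LF3, and 1 was higher and 1 lower under ICG-001. Over all genes tested, 22.2% were called in LF3 minus DMSO and 37.6% in ICG-001 minus DMSO. Glud1 counted as not called, from its brighter probe (0.29 under ICG-001, limma adjusted p = 0.169). Its other probe was called higher there (0.79, adjusted p = 0.000268). The median log2 difference of the 7 tested was 0.03 for LF3 and 0.09 for ICG-001. Aldh1l2, a mitochondrial folate enzyme that yields NADPH, went up under both inhibitors, by 0.74 under LF3 (limma adjusted p = 0.000947) and by 1.55 under ICG-001 (adjusted p = 6.39e-07). Its second probe gave 0.99 and 1.78. Mthfd2, which acts before it in the mitochondrial folate pathway, rose by 0.66 under LF3 (adjusted p = 0.00555), with 0.12 (adjusted p = 0.549) under ICG-001. Me2, a mitochondrial malic enzyme, was lower under LF3 (-0.43, adjusted p = 0.0377), a call that ended without any 1 of the 3 DMSO arrays, ICG-001 array 2 or LF3 array 1 or 2 (-0.48 to -0.31, adjusted p up to 0.152). H6pd, the hexose-6-phosphate dehydrogenase of the endoplasmic reticulum, was lower under ICG-001 (-0.39, adjusted p = 0.0146), and lost its call without DMSO array 2 or ICG-001 array 2 (-0.36 to -0.32, adjusted p up to 0.0722).

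Among 13 neighbours of the pentose phosphate pathway, 6 were tested. Under LF3, 0 were higher and 1 was lower (22.2% of all genes were called), with a median of -0.12. Under ICG-001, 1 was higher and 3 were lower (37.6% of all genes were called), with a median of -0.34. Rbks, the ribokinase, fell by 0.78 under LF3 (limma adjusted p = 0.00404) and by 0.68 under ICG-001 (adjusted p = 0.00413). The hexokinases, which make glucose 6-phosphate, went opposite ways under ICG-001: Hk2 rose by 0.46 (adjusted p = 0.00922) and Hk1 fell by 0.46 (adjusted p = 0.0116). The Hk1 call ended without ICG-001 array 2 (-0.38, adjusted p = 0.0605), and the Hk2 call with median scaling (0.39, adjusted p = 0.0561). Prps2, which activates ribose 5-phosphate for nucleotide synthesis, was lower under ICG-001 (-0.44, adjusted p = 0.0189), and lost its call when DMSO array 2 or 3 or ICG-001 array 1 was left out (-0.41 to -0.39, adjusted p up to 0.076).

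The list of NAD-linked counterparts held 5 genes, all tested. They were subunits of the NAD-dependent isocitrate dehydrogenase, and malate dehydrogenases, which are not malic enzymes. Under ICG-001, 2 fell and 0 rose (37.6% of all genes were called), with a median of -0.07. Idh3g counted as not called, from its brighter probe (-0.07, limma adjusted p = 0.701), while its other probe was called lower (-0.35, adjusted p = 0.0397). Mdh1, the cytosolic malate dehydrogenase, fell by 0.87 (limma adjusted p = 0.000307), and its second detected probe gave -1.02. Idh3a, a catalytic subunit of the NAD-dependent isocitrate dehydrogenase, fell by 0.64 (adjusted p = 0.000684). Under LF3, 2 were higher and 0 lower (22.2% of all genes were called), with a median of 0.01. They were Idh3b (0.39, adjusted p = 0.0334) and Mdh2 (0.44, adjusted p = 0.0324). The Idh3b call ended without DMSO array 2 or 3, ICG-001 array 2 or LF3 array 1 or 2 (adjusted p up to 0.138), and the Mdh2 call without any 1 of the DMSO arrays or LF3 array 3 (adjusted p up to 0.098). With median scaling 0 of the 5 were called under LF3.

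Of 18 enzymes that use NADPH, 11 were tested. Under LF3, 2 were higher and 3 lower (median 0.00), and under ICG-001, 0 were higher and 5 lower (median -0.24). Of all genes, 10.9% were called higher and 11.3% lower under LF3, and 18.7% higher and 18.9% lower under ICG-001. Tecr counted as not called, from its brightest probe (-0.24 under ICG-001, limma adjusted p = 0.176). Of its other probes, ILMN_2994779 was called lower there (-0.47, adjusted p = 0.0391) and ILMN_2710784 was not (-0.38, adjusted p = 0.0674). Nqo1, a quinone reductase and known NRF2 target, moved in opposite directions: it rose by 0.56 under LF3 (limma adjusted p = 0.00978) and fell by 0.69 under ICG-001 (adjusted p = 0.0012). Its second probe gave 0.57 under LF3 (adjusted p = 0.0268) and was detected on 2 DMSO, 3 LF3 and 0 ICG-001 arrays, so that it has only a bound under ICG-001. The difference between the inhibitors was 1.25 (adjusted p = 1.43e-05), and with median scaling the LF3 call ended (0.33, adjusted p = 0.147). Sqle, the squalene epoxidase of cholesterol synthesis, was lower under both on its brighter probe (-0.83, adjusted p = 0.00131, and -0.86, adjusted p = 0.000335). Its other probe passed in neither (-0.29 and -0.49). Hsd17b7, also of cholesterol synthesis, fell by 0.74 under ICG-001 (adjusted p = 0.000232), and Blvrb, a biliverdin and flavin reductase, rose by 0.72 under LF3 (adjusted p = 0.000757).

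Among 9 regulators, 6 were tested, of which 2 were higher and 1 lower under LF3, and 1 higher and 1 lower under ICG-001. The shares called over all genes were 22.2% for LF3 and 37.6% for ICG-001. The median difference of the 6 was 0.20 for LF3 and -0.17 for ICG-001. Nfe2l2, the gene of NRF2, was not called (-0.07 under LF3, limma adjusted p = 0.714, and -0.28 under ICG-001, adjusted p = 0.0636). Keap1, which holds NRF2 in check, fell by 0.51 under ICG-001 (adjusted p = 0.00896) and by 0.44 under LF3 (adjusted p = 0.0337). The LF3 call ended without DMSO array 2 or 3 or LF3 array 2 or 3 (-0.44 to -0.31, adjusted p up to 0.112), and the other 3 Keap1 probes gave -0.60 to -0.41 under LF3, of which 2 were called. Myc, a transcription factor that drives growth, rose by 1.12 under ICG-001 (adjusted p = 0.000419). Under LF3 Myc differed by 0.32 (adjusted p = 0.243), and by 0.60 (adjusted p = 0.00414) without DMSO array 1. Hif1a, of the hypoxia response (0.48, adjusted p = 0.0191), and Mafg, a partner of NRF2 (0.39, adjusted p = 0.0395), were higher under LF3. The Hif1a call ended without DMSO array 2 or LF3 array 2 (adjusted p up to 0.097), and the Mafg call in 8 of the 9 fits with 1 array left out, all but that without LF3 array 2 (adjusted p up to 0.109). Both calls ended with median scaling as well (adjusted p = 0.335 and 0.438).

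**Figure D4:**
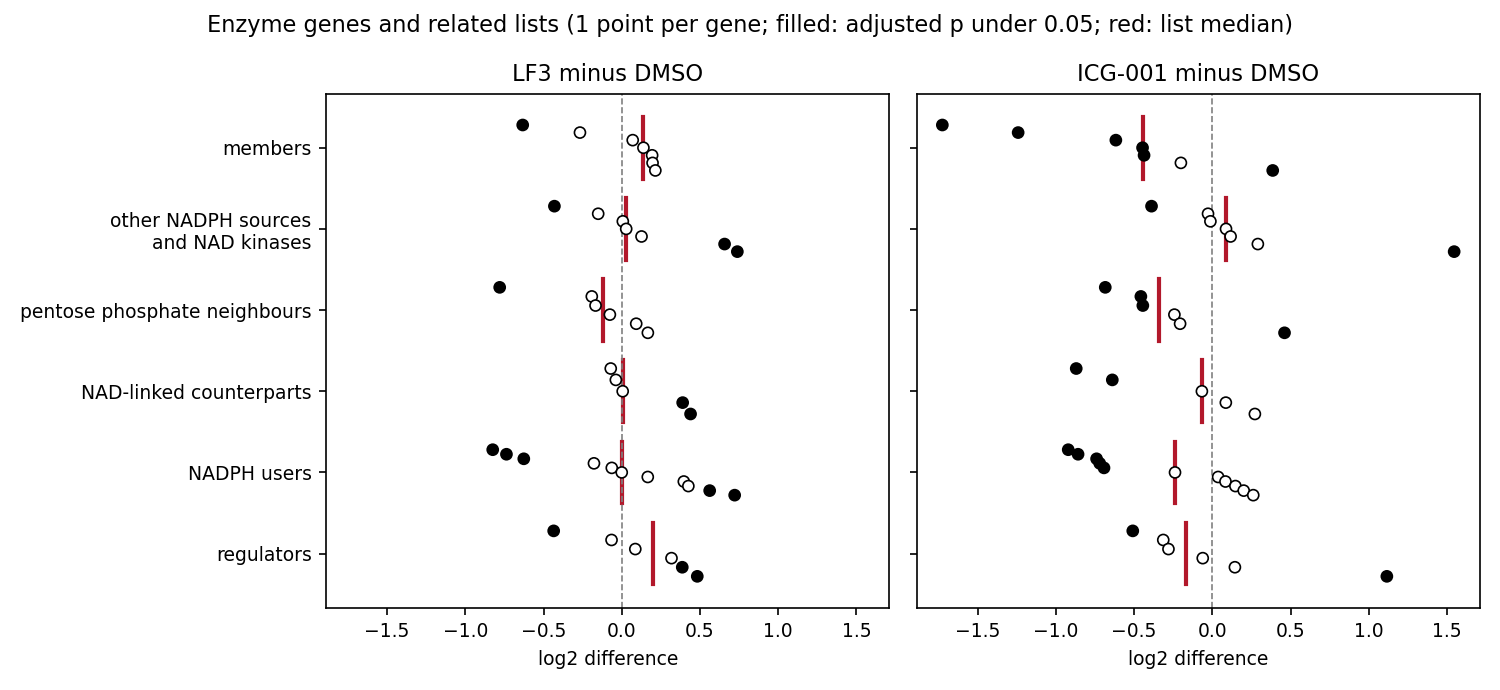
Log2 difference from DMSO (x axis) of the 7 genes and of the tested genes of each related list (y axis), under LF3 and ICG-001; filled points had a limma adjusted p under 0.05 and red bars are list medians. The 7 genes have their median at -0.45 under ICG-001 and at 0.14 under LF3.

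Across the whole series, mean signal per array was 340.0 to 467.3, and 9939 to 10897 of 25697 probes were detected. Normalized values correlated across probes at r = 0.9872 to 0.9942 within groups and 0.9612 to 0.9835 between them. LF3 arrays 2 and 3 had the lowest mean signals, 346 and 340.0. With arrays scaled to a common median in place of quantile normalization, the median difference over all genes was -0.24 between LF3 and DMSO, -0.10 between ICG-001 and DMSO and -0.14 between LF3 and ICG-001. The common median was taken over all 25697 probes. Only 38.7% to 42.4% of them were detected per array, so it fell among undetected probes. Calls higher and lower over all genes went from 804 and 832 to 203 and 2140 for LF3, from 1372 and 1391 to 832 and 1554 for ICG-001, and from 1487 and 1436 to 733 and 1942 between the inhibitors. On that scale the median of the 7 genes was -0.13 for LF3 minus DMSO, with 0 higher and 2 lower (Rpia was added), and -0.53 for ICG-001 minus DMSO, with 0 higher and 5 lower. The calls of Tkt and Idh1 were the same.

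The labelled cell type was set against marker genes, as summed normalized signals over all probes of a list. The brightest probe weighs most in a sum, and undetected probes add their background to it. Of the stem and progenitor markers with a probe, 4 of 7 were detected, and Aldh1a1, Cd24a and Prom1 were not. Their sum was 18988 to 20748 on DMSO, 19104 to 20949 on LF3 and 9038 to 10487 on ICG-001 arrays. That sum follows Aldh3a1, by far the brightest of them (log2 14.22 on DMSO arrays), whose level in ICG-001 fell by 1.09 on the log2 scale (limma adjusted p = 9.33e-06). The other detected stem markers were not called lower under ICG-001. Cd44 rose by 0.54 (adjusted p = 0.00196) on the only Cd44 probe that was kept. Sox9 differed by -0.23 (adjusted p = 0.215). Itga6 was detected on 1 DMSO, 1 LF3 and 3 ICG-001 arrays. It passed the detection filter only through ICG-001, so its call there is no evidence of a rise. The list's median difference under ICG-001 was 0.11, with 2 called higher, Itga6 among them, and 1 lower.

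Of 7 acinar markers 3 were detected, with sums of 7513 to 8679 on DMSO, 7114 to 7977 on LF3 and 6561 to 7048 on ICG-001 arrays. They too moved in different directions under ICG-001: Aqp5, the brightest, fell by 0.72 (limma adjusted p = 0.000423), Slc12a2 rose by 0.38 (adjusted p = 0.0282) and Xbp1 differed by 0.25 (adjusted p = 0.174). Of 7 leukocyte markers 3 were detected, with sums of 264 to 308 on DMSO, 253 to 279 on LF3 and 388 to 475 on ICG-001 arrays, and Ptprc, Adgre1, Itgam and Cd3e were not detected. Cd14 rose by 0.59 under ICG-001 (adjusted p = 0.00252), and Cd74 was detected on 3 ICG-001 arrays and on 0 DMSO arrays. Lyz2 differed by 0.05 under ICG-001 (adjusted p = 0.85). Of 7 fibroblast markers 2 were detected, with sums of 147 to 216 on DMSO, 124 to 169 on LF3 and 131 to 137 on ICG-001 arrays. Col1a1 was detected on 3 DMSO, 2 LF3 and 0 ICG-001 arrays. Pdgfra was detected on all 9 arrays and differed by -0.15 under ICG-001 (adjusted p = 0.409). Of 6 endothelial markers only Tie1 was detected, on 3 DMSO arrays and on 0 of the others, with list sums of 64.1 to 72.9 on DMSO, 52.4 to 77.2 on LF3 and at most 54.5 on ICG-001 arrays. Of 8 epithelial markers 2 were detected, with sums of 102 to 112 on DMSO, 94.1 to 137 on LF3 and 98.0 to 119 on ICG-001 arrays, and Cdh1, Krt5, Krt7, Krt14, Krt18 and Krt19 were not detected.

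The sums of the stem, acinar, leukocyte, fibroblast and endothelial lists thus did not overlap between ICG-001 and DMSO arrays. That comparison called 37.6% of all genes, and the share of all genes without overlap was not counted. The separation of these sums is therefore not read as a result about cell types. The fibroblast and endothelial lists held mostly undetected markers, whose background is part of those sums. The part of these markers in the differences of the enzyme genes was not tested. In such bulk RNA, fewer cells of a type and less RNA per cell cannot be told apart.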

How the data were processed

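The deposited signal intensities are linear and not normalized between arrays, and come with deposited detection p-values, per the file headers. The submitters' processing notes name GenomeStudio 2010.1. The authors' deposited processed intensities served as an alternative, and their normalization is not given in the sources used here. Background was corrected with the detection p-values (neqc, limma 3.58.1, R 4.3.3, offset 16), followed by log2 and quantile normalization. Probes detected at p under 0.01 on at least 3 of 9 arrays were kept (10830). The brightest kept probe stood for a gene, named from the platform annotation.

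All 9 arrays entered 1 limma fit with 3 group means, two-sided, with Benjamini-Hochberg adjustment over all probes kept. The small number of arrays limits the precision. The members and lists were chosen with earlier results of these data known. From each related list the 4 genes with the lowest F test p were named. Genes most like G6pdx were to be named, but G6pdx was not analysed here. The fit was also run on simulated data, whose outcome is not used as support here. A difference that was not called is not read as no change. Same-numbered samples did not deviate together (r from -0.23 to 0.14 over 9 pairs), so the numbers were not taken as pairs.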

Additional observations from a re-analysis of the deposited data

How the results depend on the processing

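The 21 differences of the 7 genes were recomputed under 21 alternatives. Of these 441 values, 413 kept their side of the threshold, 23 lost a call and 5 gained one. A difference that was called, in the main fit or the alternative, changed direction in 0 cases. Uncalled differences did change sign: in LF3 minus DMSO, Pgls went down to -0.16, Me1 to -0.13 and Idh2 to -0.02. The calls of Tkt and Idh1 held in all 21 alternatives. The count of the 7 genes called in LF3 minus DMSO went from 1 to 2 with median scaling, with array weights and without DMSO array 1, each time by Rpia (-0.58, -0.44 and -0.45). Over all genes those fits called 31.9%, 29.9% and 25.5%, against 22.2% in the main fit. With 1 array left out the counts ranged from 1 to 2 for LF3 minus DMSO, 4 to 6 for ICG-001 minus DMSO, 4 to 5 for LF3 minus ICG-001 and 4 to 6 for the F test. The share called over all genes in those fits ranged from 11.9% to 25.5%, 29.3% to 40% and 30.9% to 42.6% in these comparisons. For the F test that share was not counted. With the replicate block the counts of the 7 genes were 1, 5, 4 and 5: Pgls in ICG-001 minus DMSO (limma adjusted p = 0.0656) and Taldo1 in LF3 minus ICG-001 (0.0505) lost their calls. Over all genes, 19.8%, 35.8% and 37.9% were then called in the comparisons of groups. Pgls in LF3 minus ICG-001 gained one with median scaling (-0.46) and array weights (-0.34). The count over all genes for LF3 minus DMSO fell from 1636 to 875 without DMSO array 2, 925 without DMSO array 3 and 1015 without LF3 array 2. Among related genes in LF3 minus DMSO, Me2 (adjusted p = 0.0715), Mdh2 (0.0596) and Keap1 (0.0612) lost their calls without the filter on dim probes, which tests more genes. The causes were not tested.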
